A study of Caenorhabditis elegans with 8 samples.

Results

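Of 8 RNA-seq libraries of whole Caenorhabditis elegans, 5 carried abundant transcripts of the major sperm proteins and 3 carried few. The libraries were divided by their own values, and in each library the log2(FPKM + 1) of the msp genes was averaged, where FPKM counts sequenced fragments scaled to exon length and library depth. Chosen by that mean level, libraries above 3 are MSP-high here and those below 3 are MSP-low. The MSP-high libraries were DL 1, DL 2, DL 3, DL 4 and NL 3, and the MSP-low libraries were NL 1, NL 2 and NL 4. Because measured values made the groups, every value set between MSP-high and MSP-low libraries is a description and carries no p-value.

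All animals were wild type, strain N2, grown from synchronized L1 larvae on OP50 bacteria at 20 °C for 40 h, and labelled young adult. DL animals then lived under 12 h of light at 8000 lux alternating with 12 h of dark, and NL animals stayed in constant darkness, with 4 libraries each of poly(A)-selected RNA. Each of 4 labelled batches supplied 1 DL and 1 NL library, so that batch 3 supplied an MSP-high library of each kind (DL 3 and NL 3), while batches 1, 2 and 4 supplied an MSP-high DL library and an MSP-low NL library. The labels give neither the number of light cycles, nor the sex of the animals, nor separate cultures behind the replicates. Between libraries of 1 label, the chi-square per gene on read counts ran from 8.57 (NL 1 and NL 2) to 125 (NL 2 and NL 4). Sampling of reads alone would give about 1, and the source of the wider spread was not tested.

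The hermaphrodite of this species makes sperm for a limited time around the last larval stage, L4, stores them in the spermatheca, and then turns its germline to oocytes. Spermatocytes transcribe a large set of genes during that window, among them the msp genes, whose product builds the motile cytoskeleton of the crawling nematode sperm and is also the signal that makes oocytes mature. Many sperm genes sit in clusters on the autosomes, and the X chromosome is largely silent in the male germline. At the same age the epidermis lays down the adult cuticle, and the intestine of the adult begins to make yolk.

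The libraries were of similar depth, with 18628030 to 20394371 reads recovered in MSP-high libraries and 18824015 to 19766081 in MSP-low libraries. MSP-high libraries had 14015 to 14463 genes at 1 FPKM or more, and MSP-low libraries 12930 to 13769. Mitochondrial genes took 2.43% to 4.51% of the summed FPKM in MSP-high libraries and 1.998% to 2.99% in MSP-low libraries. The label of young adult is not matched by abundant transcripts of the adult collagen gene col-19, which did not exceed 4.10 FPKM in 3 of the MSP-high libraries (DL 1, DL 3, DL 4) or 1.19 FPKM in the MSP-low libraries. In whole worms, fewer cells of a type and less RNA per cell cannot be told apart.

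The mean log2 level of 29 msp genes was 5.02 in DL 1, 6.92 in DL 2, 5.04 in DL 3, 4.76 in DL 4 and 5.10 in NL 3, against 1.55 in NL 1, 1.86 in NL 2 and 0.55 in NL 4. DL 4 was the library nearest the threshold from above and NL 2 the nearest from below, and no library lay between them. With ssp, ssq and nspd genes in place of msp genes, 3 libraries were above 3, since DL 1 stood at 2.81 and NL 3 at 2.85, while no MSP-low library exceeded 1.03. The table names 31 msp genes, of which 29 reached a mean of 1 FPKM, 12 on chromosome II and 17 on chromosome IV. For all 29 the lowest MSP-high library lay above the highest MSP-low library, as the choice of libraries largely ensures. The msp copies are nearly identical in sequence, so the division of reads among them is uncertain.

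**Figure D1:**
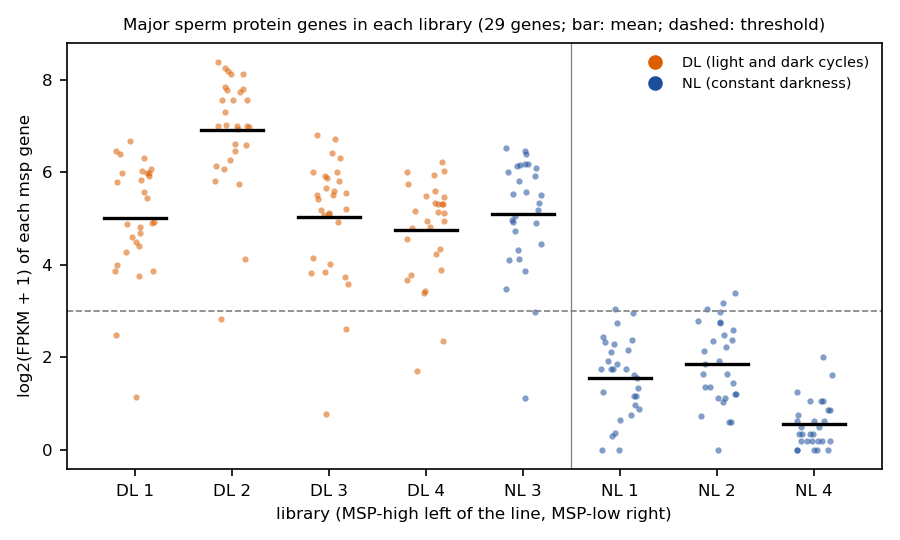
Each point is 1 of 29 msp genes in 1 library, as log2(FPKM + 1) on the y axis, with DL libraries in orange and NL libraries in blue; black bars are means and the dashed line is the threshold of 3. MSP-high means run from 4.76 to 6.92 and MSP-low means from 0.55 to 1.86, and NL 3 lies with the DL libraries.

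The marker msp-3 (WBGene00003424, a single exon at WBcel235 chromosome II, 4785898 to 4786281, minus strand) read 27.3, 121, 41.96 and 38.5 FPKM in DL 1 to DL 4 and 39.03 FPKM in NL 3, against 1.24 FPKM in NL 1, 4.20 FPKM in NL 2 and 0.272 FPKM in NL 4. Its level in NL 3 sat inside the range of the DL libraries, and DL 2 stood above the other MSP-high libraries. The mean FPKM was 28.2-fold higher in MSP-high than in MSP-low libraries. The marker msp-10 (WBGene00003425, a single exon on chromosome IV, 9837649 to 9838032, plus strand) read 18.5, 52.9, 13.1 and 12.7 FPKM in DL 1 to DL 4 and 10.1 FPKM in NL 3, against 0, 0.525 and 0 FPKM in NL 1, NL 2 and NL 4, where it rested on 0, 4 and 0 reads. The MSP-low libraries were not empty of sperm transcripts: their median msp gene stood at 2.35 FPKM in NL 1, 2.62 FPKM in NL 2 and 0.272 FPKM in NL 4, against 29.3 to 127 FPKM in the MSP-high libraries.

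The marker ssp-32, a small sperm-specific protein gene (chromosome IV, 9895388 to 9896136), divided the libraries less cleanly. It read 2.74, 3.93, 4.22 and 3.78 FPKM in DL 1 to DL 4 but 0.686 FPKM in NL 3, against 0.361, 0.344 and 0 FPKM in NL 1, NL 2 and NL 4. In reads these are 26, 35, 34, 33 and 6, against 3, 3 and 0. NL 3 therefore stood next to the MSP-low libraries for this gene, by a margin of few reads.

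Beyond the msp genes, 14329 genes averaging 1 FPKM or more were compared. The average runs over all 8 libraries, so a gene can reach it through the MSP-high libraries alone. A gene was counted as higher in MSP-high libraries where all 5 lay above all 3 MSP-low libraries and the group means of log2(FPKM + 1) differed by at least 1, and as lower in the mirror case. By this rule 1225 genes (8.55%) were higher and 100 (0.698%) were lower. Without the size requirement the groups did not overlap for 1820 genes (12.7%) higher and 816 (5.69%) lower in MSP-high libraries. The median difference of all compared genes was 0.04, and -0.06 after quantile normalization. Quantile normalization gave 909 higher and 229 lower genes, which moved the share of higher genes among those counted to 79.9%, against 92.5%.

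A gene counted as higher must peak in 1 of the 5 MSP-high libraries and be lowest in 1 of the 3 MSP-low libraries, and the division does not fix which. DL 2 was the highest of the 8 libraries for 1182 of the 1225 (96.5%), against 22.7% of all compared genes. NL 4 was the lowest or tied for lowest for 1115 of them (91.0%), against 23.8% of all compared genes. NL 3 lay within the range of DL 1, DL 3 and DL 4 for 678 of them (55.3%), against 51.8% of all compared genes, above that range for 287 and below it for 260.

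Small sperm proteins were the most uniformly separated list. Of 29 compared members, 28 were higher in MSP-high libraries and 0 were lower, with a median difference of 2.93, against 8.55% higher and a median of 0.04 over all genes. The sperm-specific class Q gene ssq-1 (chromosome IV, 9852550 to 9853609) read 34.3, 102, 36.3 and 31.5 FPKM in DL 1 to DL 4 and 19.6 FPKM in NL 3, against 1.32, 1.31 and 0.326 FPKM in NL 1, NL 2 and NL 4, a difference of 4.35. The lowest MSP-high library was NL 3, still well above every MSP-low library. The nearby ssp-10 read 32.1, 88.8, 31.6 and 28.4 FPKM in DL 1 to DL 4 and 25.8 FPKM in NL 3, against 1.12, 2.14 and 0.158 FPKM in NL 1, NL 2 and NL 4. For msd-4, which codes for a protein with an MSP domain, the values were 25.7, 112, 50.98 and 35.02 FPKM in DL 1 to DL 4 and 37.6 FPKM in NL 3, against 3.21, 1.83 and 0 FPKM in NL 1, NL 2 and NL 4. All 3 genes had DL 2 highest and NL 4 lowest.

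Within the MSP-high libraries this list was not even. DL 1 and NL 3 both lay below both DL 3 and DL 4 for 18 of the 29 members (62.1%), against 25.4% of all compared genes. That included all 9 nspd genes, which code for small nematode-specific peptides. The example nspd-1 read 5.87, 70.2, 38.7 and 28.0 FPKM in DL 1 to DL 4 and 9.44 FPKM in NL 3, against 1.49, 3.31 and 0 FPKM in NL 1, NL 2 and NL 4. Its levels in DL 1 and NL 3 were nearer to NL 2 than to DL 2. Copies of the nspd genes are alike, so their separate values are uncertain.

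Sperm chromatin, phosphatase and paternal factor genes differed as much. Of 13 compared members, 12 were higher and 0 lower in MSP-high libraries, beside 8.55% of all genes higher, with a median difference of 3.08. The gene with the largest difference outside the msp family was spch-1 (WBGene00007307, chromosome IV, 10110818 to 10111541, minus strand), which codes for a basic protein of sperm chromatin. It read 113, 249.9, 121 and 78.4 FPKM in DL 1 to DL 4 and 90.6 FPKM in NL 3, against 7.46, 6.34 and 0.774 FPKM in NL 1, NL 2 and NL 4, a difference of 4.65. The phosphatase gene gsp-3, whose product works in sperm meiosis and motility, read 31.6, 90.7, 34.0 and 27.7 FPKM in DL 1 to DL 4 and 35.5 FPKM in NL 3, against 3.85, 5.06 and 0.515 FPKM in NL 1, NL 2 and NL 4. NL 3 lay inside the DL range, and the groups were far apart.

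Other members of the list followed. The Argonaute genes alg-3 and alg-4, which act with small RNAs of the male germline, differed by 2.73 and 3.08. The sperm histone H2A variant gene htas-1 read 9.03 to 31.1 FPKM in MSP-high libraries and 0 to 0.330 FPKM in MSP-low libraries, and peel-1, whose product is a toxin delivered by sperm, read 3.12 to 11.6 FPKM in MSP-high libraries and 0 to 0.246 FPKM in MSP-low libraries. The kinase gene wee-1.3, listed for its role in spermatocyte division, differed by 0.58 and was the member not counted. Among 41 histone genes compared, 1 was higher, beside 8.55% of all genes. That member, his-70, a gene for an H3-like histone, read 19.4 to 43.3 FPKM in MSP-high libraries and 0.387 to 4.23 FPKM in MSP-low libraries.

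Genes named for defects in sperm formation, activation or fertilization were higher in 15 of 22 compared members, beside 8.55% of all genes. The median difference was 1.46, and 0 were lower. A further 9 of 31 members in the table did not reach a mean of 1 FPKM. The gene spe-11, whose product sperm carry into the egg, read 8.63, 27.1, 5.93 and 8.94 FPKM in DL 1 to DL 4 and 7.41 FPKM in NL 3, against 0.434, 0.773 and 0 FPKM in NL 1, NL 2 and NL 4. For spe-46 the values were 16.1, 32.1, 13.3 and 11.3 FPKM in DL 1 to DL 4 and 16.8 FPKM in NL 3, against 1.51, 2.62 and 0.495 FPKM in NL 1, NL 2 and NL 4. The calcium channel gene spe-41 differed by 1.86, the presenilin-like spe-4 by 1.39 and fer-1, needed for membrane fusion in sperm activation, by 1.04. The fertilization gene spe-9 read 0.944 to 3.22 FPKM in MSP-high libraries and 0.155 to 1.05 FPKM in MSP-low libraries, which overlapped.

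The regulators that set germ cells on the sperm or oocyte path did not move as a list. Of 20 compared, 2 were higher and 0 lower, near the 8.55% and 0.698% of all genes, with a median difference of 0.05. The transcription factor gene spe-44, which switches on sperm genes, read 12.6, 15.4, 9.85 and 8.85 FPKM in DL 1 to DL 4 and 11.7 FPKM in NL 3, against 5.26, 5.34 and 2.08 FPKM in NL 1, NL 2 and NL 4. The translational repressor gene gld-1 read 91.9, 187, 97.5 and 69.2 FPKM in DL 1 to DL 4 and 104.3 FPKM in NL 3, against 46.1, 50.8 and 33.5 FPKM in NL 1, NL 2 and NL 4. Both had every MSP-high library above every MSP-low library, by smaller ratios than the sperm proteins.

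The genes fog-1 and fog-3, which are required at the start of the sperm fate, had the opposite sign. Expression of fog-1 was 7.04, 5.13, 8.69 and 6.86 FPKM in DL 1 to DL 4 and 8.81 FPKM in NL 3, against 15.2, 15.2 and 13.6 FPKM in NL 1, NL 2 and NL 4. The groups did not overlap, beside 5.69% of all compared genes lower without overlap, and the difference of -0.93 fell short of the size required. For fog-3 the values were 9.14, 7.52, 6.62 and 7.13 FPKM in DL 1 to DL 4 and 12.3 FPKM in NL 3, against 12.5, 17.8 and 11.2 FPKM in NL 1, NL 2 and NL 4, and NL 3 lay within the MSP-low range. Both genes were picked out after their values were seen.

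**Figure D2:**
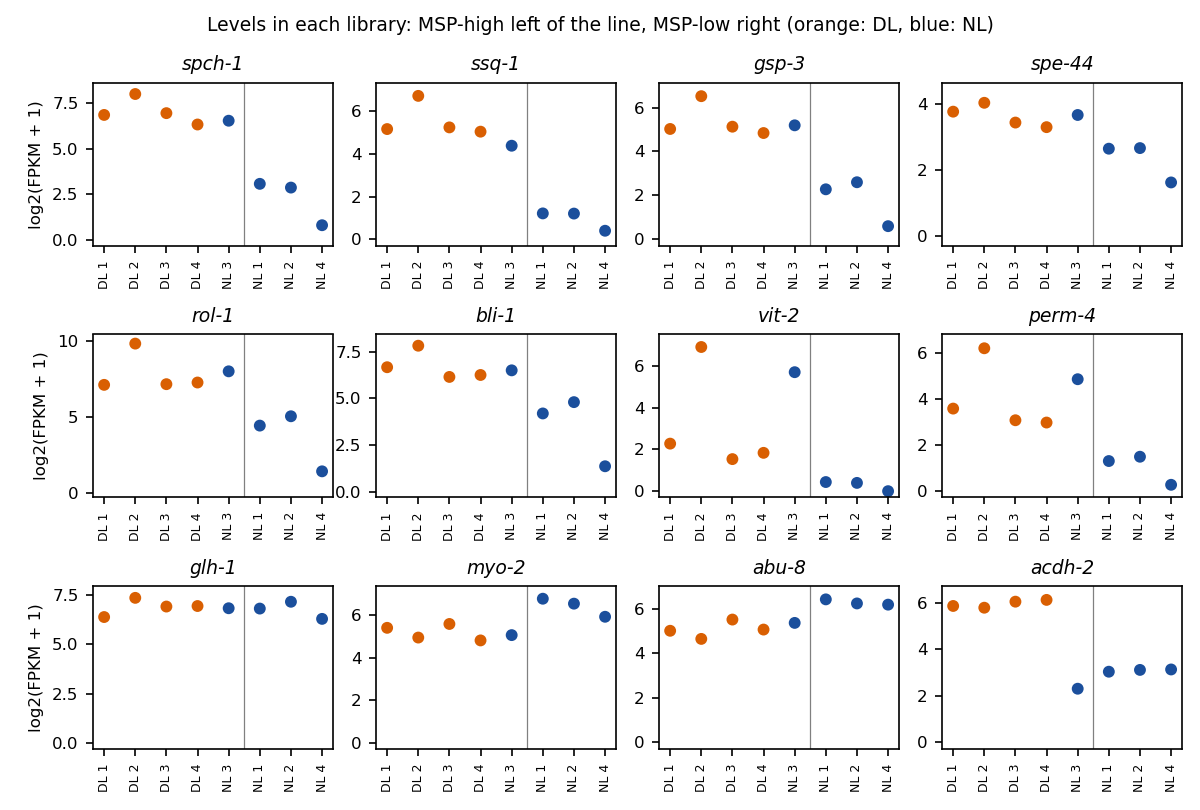
Levels of 12 genes in each library, as log2(FPKM + 1) on the y axis, with MSP-high libraries left of the grey line and MSP-low libraries right of it, DL in orange and NL in blue. The sperm genes spch-1, gsp-3 and spe-44 have NL 3 within the DL range and ssq-1 has it just below; vit-2 and perm-4 have DL 2 and NL 3 above the rest; acdh-2 has NL 3 with the other NL libraries.

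Oocyte, eggshell and maternal genes were also higher in MSP-high libraries, in 18 of 29 compared members, beside 8.55% of all genes. The median difference was 1.33, and 0 were lower. The oocyte surface gene egg-1 read 9.62, 34.5, 8.55 and 4.89 FPKM in DL 1 to DL 4 and 9.75 FPKM in NL 3, against 1.77, 2.47 and 1.72 FPKM in NL 1, NL 2 and NL 4. The eggshell gene cpg-3 read 15.5, 56.5, 13.9 and 7.22 FPKM in DL 1 to DL 4 and 17.2 FPKM in NL 3, against 4.28, 3.92 and 2.03 FPKM in NL 1, NL 2 and NL 4. For both, DL 2 stood above the rest and DL 4 was the lowest MSP-high library. The yolk receptor gene rme-2 differed by 1.47, the RNA-binding protein gene puf-5 by 1.99 and oma-1, which acts in oocyte maturation, by 1.02. Without NL 3 and DL 2, 12 of the 29 were higher and the median difference was 0.94.

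General germline genes differed little. Of 33 genes for germ granules and meiotic chromosomes, 0 were higher and 0 lower by the rule, although 32 had a positive difference and the median was 0.44. The germ granule helicase gene glh-1 read 82.0, 162, 119 and 121 FPKM in DL 1 to DL 4 and 112 FPKM in NL 3, against 111, 141 and 76.9 FPKM in NL 1, NL 2 and NL 4, and the groups overlapped. Of 28 genes for DNA replication and mitosis, 0 were higher and 0 lower, with a median of 0.22. The replication clamp gene pcn-1 read 90.3 to 118 FPKM in MSP-high libraries and 72.7 to 114 FPKM in MSP-low libraries.

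**Figure D3:**
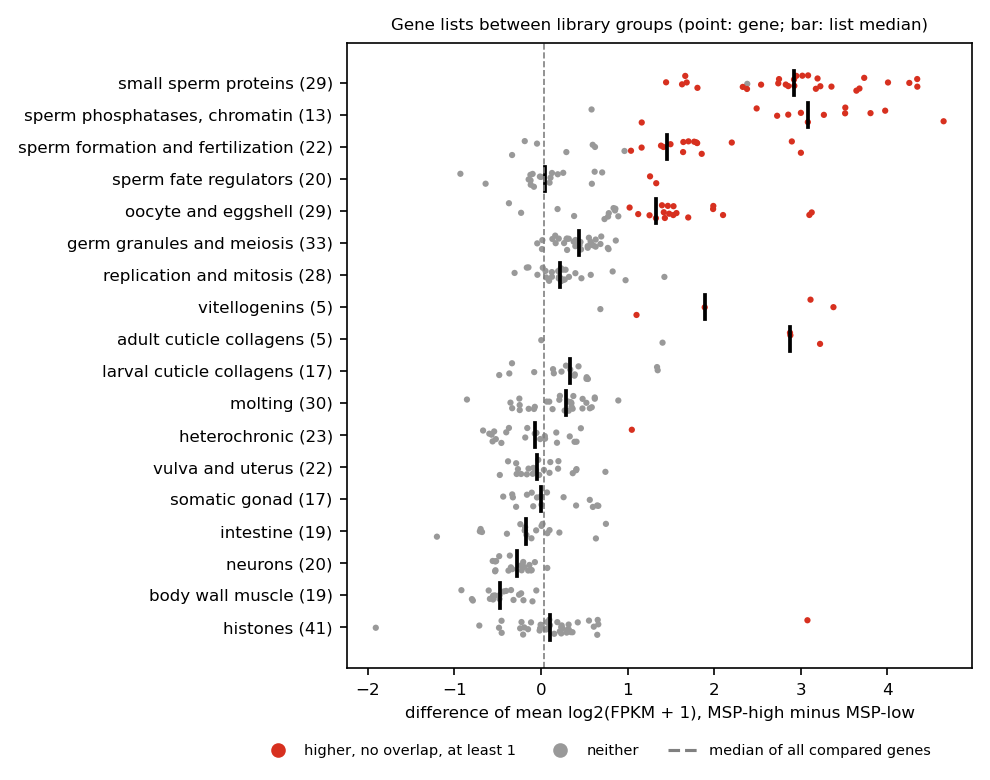
Each point is a gene, placed by its difference of mean log2(FPKM + 1), MSP-high minus MSP-low, with the number of genes compared beside the list name; black bars are list medians and the dashed line is the median of all genes. The 3 lists of sperm products have medians from 1.46 to 3.08, while lists for germ granules, cell cycle, neurons and muscle lie between -0.48 and 0.44.

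Cuticle collagens supplied 5 of the 12 genes with a symbol that had the largest differences outside the msp family. Of 150 cuticle collagen genes compared, 26 were higher and 2 (col-41 and col-90) lower in MSP-high libraries, beside 8.55% and 0.698% of all genes, and the median of the list was -0.29, so a minority of collagens differed strongly while most did not. The collagen gene col-138 (chromosome IV, 17182884 to 17183729) read 318, 1581, 333 and 335 FPKM in DL 1 to DL 4 and 464 FPKM in NL 3, against 45.5, 69.9 and 3.83 FPKM in NL 1, NL 2 and NL 4. The collagen gene rol-1 (chromosome II, 12172573 to 12176069) read 138, 913, 142 and 154 FPKM in DL 1 to DL 4 and 257 FPKM in NL 3, against 20.6, 32.1 and 1.67 FPKM in NL 1, NL 2 and NL 4. The genes bli-1 and bli-2, for collagens of the struts of the adult cuticle, differed by 3.22 and 2.88. Reads of bli-1, bli-2 and col-138, and likewise of egg-1, cpg-3, perm-2, col-19, vit-2, mab-10 and myo-1, may include a gene on the other strand, since the kit does not mark strand, and mab-10 and acdh-2 also overlap a gene on their own strand. Of 17 genes in a list of furrow and larval cuticle genes, which does not separate larval from adult use, 0 were counted either way. All but dpy-18, a gene for a collagen-modifying enzyme, code for collagens. The collagen gene dpy-5 read 754 to 1653 FPKM in MSP-high libraries and 1372 to 1969 FPKM in MSP-low libraries.

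A smaller set of genes had DL 2 and NL 3 apart from the other MSP-high libraries. For 32 of the 1225 higher genes (2.61%, against 0.502% of all compared genes) both DL 2 and NL 3 lay at least 1 above DL 1, DL 3 and DL 4. They included 14 collagens, 4 vitellogenins, the eggshell genes perm-2 and perm-4, the uterine lumen genes ule-3 and ule-4, and 1 member of the sperm lists. The yolk protein gene vit-2 (chromosome X, 5101042 to 5106169) read 3.86, 119.8, 1.90 and 2.58 FPKM in DL 1 to DL 4 and 51.3 FPKM in NL 3, against 0.354, 0.317 and 0 FPKM in NL 1, NL 2 and NL 4. The adult collagen gene col-19 read 2.19, 103, 4.10 and 3.30 FPKM in DL 1 to DL 4 and 41.8 FPKM in NL 3, against 1.19, 1.14 and 0.0561 FPKM in NL 1, NL 2 and NL 4. For both genes DL 2 and NL 3 stood far above the other MSP-high libraries, which is the pattern they were picked for, whereas bli-1 and bli-2 had NL 3 within the range of DL 1, DL 3 and DL 4. With all libraries 4 of 5 vitellogenins were higher, beside 8.55% of all genes, with a median difference of 1.89. Without NL 3 and DL 2 it was 2 of 5, with a median of 0.14. For 5 adult cuticle genes the count was 3 with all libraries and 3 without those libraries, and the median moved to 1.27 without them, against 2.88.

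Genes that time development differed less. Of 23 heterochronic and molting-clock genes, 1 was higher and 0 lower, beside 8.55% and 0.698% of all genes. That gene, mab-10, a partner of LIN-29 in ending the molts, read 24.4, 24.0, 29.3 and 22.8 FPKM in DL 1 to DL 4 and 21.4 FPKM in NL 3, against 10.1, 14.9 and 9.33 FPKM in NL 1, NL 2 and NL 4. The gene lin-29 itself read 16.3 to 21.8 FPKM in MSP-high libraries and 12.3 to 25.7 FPKM in MSP-low libraries. Of 30 molting genes 0 were counted either way, with a median of 0.29, and the same held for 22 vulva and uterus genes (median -0.04) and 17 genes of the somatic gonad (median -0.0014).

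Tissues of the body differed little or ran below in MSP-high libraries. All 19 body wall muscle genes had a negative difference, with a median of -0.48, and 0 passed the rule. The body wall myosin gene unc-54 read 356 to 624 FPKM in MSP-high libraries and 539 to 801 FPKM in MSP-low libraries. Neuronal genes had a median of -0.28 (19 of 20 negative) and intestinal genes a median of -0.17, both with 0 counted either way.

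Of 10 pharyngeal muscle genes, 3 were lower and 0 higher, with a median of -0.74, where 0.698% of all compared genes were lower. The pharyngeal myosin gene myo-2 read 41.6, 30.0, 47.4 and 27.2 FPKM in DL 1 to DL 4 and 32.6 FPKM in NL 3, against 109, 93.0 and 60.2 FPKM in NL 1, NL 2 and NL 4. Its partner myo-1 differed by -1.29 and myo-5 by -1.19. For all 3 genes NL 4 was the lowest of the MSP-low libraries.

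Of 11 compared abu genes, which code for prion-like proteins of the pharynx, 6 were lower and 0 higher, with a median of -1.04, beside the same 0.698% of all genes. The gene abu-8 (chromosome V, 5192995 to 5194608) read 31.1, 23.9, 44.5 and 32.3 FPKM in DL 1 to DL 4 and 40.0 FPKM in NL 3, against 84.2, 74.1 and 71.3 FPKM in NL 1, NL 2 and NL 4. Every MSP-high library lay below every MSP-low library. Of 11 nspb genes, for small nematode-specific peptides, 3 were lower, beside 0.698% of all genes, and all 11 had a negative difference. The example nspb-7 read 12.2, 9.05, 7.28 and 5.05 FPKM in DL 1 to DL 4 and 22.4 FPKM in NL 3, against 31.6, 41.1 and 25.9 FPKM in NL 1, NL 2 and NL 4, so that NL 3 lay nearer to the MSP-low libraries. The D-amino acid oxidase gene daao-1 read 6.54, 8.28, 8.86 and 9.44 FPKM in DL 1 to DL 4 and 14.98 FPKM in NL 3, against 44.4, 39.6 and 17.7 FPKM in NL 1, NL 2 and NL 4. The pharyngeal muscle, abu and nspb lists were put together after their values were seen.

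Of 272 annotated 21U-RNA loci, short sources of germline piRNAs, 10 were lower and 0 higher, where 0.698% of all genes were lower. Their FPKM values rest on a handful of reads in loci of 21 bases, and poly(A) selection does not capture mature piRNAs. The locus 21ur-14218 had 0 reads in all 5 MSP-high libraries and 5, 5 and 2 reads in NL 1, NL 2 and NL 4. In 2 of the 3 MSP-low libraries that is above the floor of 3 counts, and no fold is given. Of the 100 lower genes, NL 1 or NL 2 was the highest library for 90 and NL 4 for 10, against 24.6% and 13.7% of all compared genes. The set depended on NL 4, since 563 genes were lower in MSP-high libraries without that library, 96 of them among the 100. Without NL 3 the count of lower genes was 274, and without NL 3 and DL 2 it was 255.

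By chromosome, the higher genes were unevenly placed. Of genes compared on chromosome IV, 13.1% were higher, against 11.6% on I, 9.79% on II, 7.68% on III, 6.04% on V and 1.86% on X. On the X chromosome 36 of 1940 genes were higher, among them 5 collagens, 3 vitellogenins and 0 genes of the 3 sperm lists, of whose 63 compared members 1 is on X. The share of lower genes ranged from 0.390% on I to 0.928% on X. Protein-coding genes among the higher set had a median exon length of 1071.5 bp and 5 exons, against 1364 bp and 6 exons over all compared protein-coding genes. Pseudogenes were higher in 48 of 325 cases (14.8%), beside 8.62% of protein-coding genes and 8.55% of all compared genes.

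**Figure D4:**
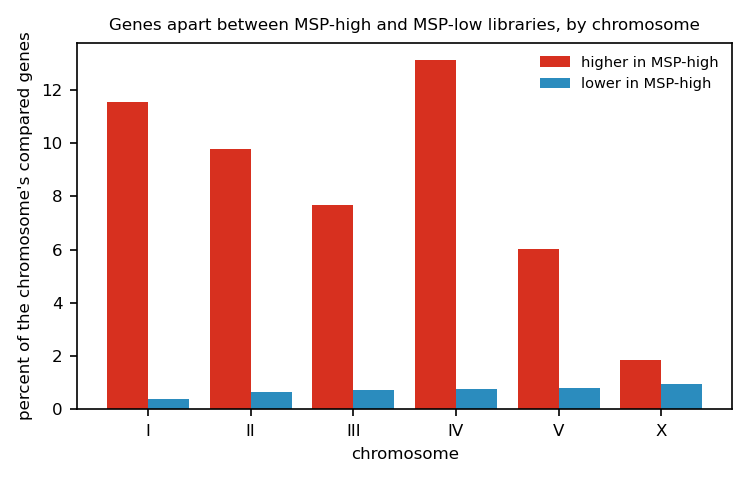
Bars give the percent of compared genes on each chromosome that were higher (red) or lower (blue) in MSP-high libraries. Higher genes made up 13.1% on chromosome IV and 1.86% on X, while lower genes stayed under 1% on every chromosome.

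The listed genes are a small part of the set: 1112 of the 1225 higher genes were in none of the lists, and 833 are known by a sequence name alone. Some symbol families with at least 8 compared genes separated, and these are named for their high counts, beside 8.55% of all genes; nhr genes, for nuclear hormone receptors, had 0 higher of 174 and unc genes 0 of 90. All 10 ssp genes, 17 of 21 spe genes and 7 of 8 irld genes, for proteins with an insulin and EGF receptor L domain, were higher. The table holds 56 irld genes, of which only 8 averaged 1 FPKM or more. MSP-high libraries alone can carry a gene past that filter, as for irld-18, with means of 4.65 FPKM in MSP-high and 0.299 FPKM in MSP-low libraries. These counts are partly set by the filter. Of the irld genes, irld-3 read 10.6, 14.8, 7.38 and 6.82 FPKM in DL 1 to DL 4 and 9.70 FPKM in NL 3, against 1.81, 2.71 and 0.343 FPKM in NL 1, NL 2 and NL 4. Further families were higher in part, with 7 of 17 nep genes (neprilysin-like peptidases), 4 of 8 scrm genes (scramblases) and 4 of 8 puf genes.

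Markers of males and of embryos were measured in the same libraries, and their part in the differences was not tested. Of 20 genes typical of male neurons and seminal fluid, 16 had a mean below 1 FPKM, cwp-3 was at 0 in all libraries, and the summed level was 46.8 to 78.0 FPKM in MSP-high libraries and 47.2 to 84.3 FPKM in MSP-low libraries. Most of that sum came from swm-1, at 35.7 to 64.2 FPKM in MSP-high libraries and 37.3 to 71.5 FPKM in MSP-low libraries. The male-tail regulator gene mab-3 read 5.69 to 8.31 FPKM in MSP-high libraries and 4.55 to 5.49 FPKM in MSP-low libraries, without overlap. In the same list clec-208 read 0.387 to 0.909 FPKM in MSP-high libraries and 0 to 0.147 FPKM in MSP-low libraries, also without overlap. Of all compared genes 12.7% were higher without overlap. Of 17 genes of early embryos, 13 had a mean below 1 FPKM, 4 (pes-10, tbx-35, hlh-27 and sdz-31) were at 0 in all libraries, and the sum was 89.6 to 104.2 FPKM in MSP-high libraries and 95.4 to 114 FPKM in MSP-low libraries. In the embryo list pal-1 read 8.592 to 16.8 FPKM in MSP-high libraries and 6.74 to 8.578 FPKM in MSP-low libraries, so that the groups nearly met. The gene pha-4 read 8.16 to 14.3 FPKM in MSP-high libraries and 14.8 to 16.1 FPKM in MSP-low libraries. Neither gene had overlapping groups, beside 12.7% of all compared genes higher and 5.69% lower without overlap.

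Because all 4 DL libraries are MSP-high, the division nearly repeats the light label, and in batches 1, 2 and 4 light and sperm transcripts cannot be told apart. Batch 3 sets an MSP-high DL library against an MSP-high NL library. The median DL minus NL difference of msp genes was 3.66, 5.29 and 4.44 in batches 1, 2 and 4 and -0.08 in batch 3, a pattern that the choice of libraries by msp level largely sets. For sperm phosphatase and chromatin genes it was 2.77, 3.92 and 3.36 in those batches and -0.06 in batch 3, and for genes of sperm formation 1.17, 2.21 and 1.33, against -0.01 in batch 3. Small sperm proteins differed from this with 0.77 in batch 3. NL 3 lay below DL 3 for all 9 nspd genes of that list. Among other members, DL minus NL in batch 3 was 1.63 for ssp-32, 0.85 for ssq-1, 0.43 for msd-4, 0.29 for ssp-10 and -0.02 for ssq-2. The cause was not tested. Oocyte and eggshell genes had 0.81, 2.37 and 0.93 in batches 1, 2 and 4 and 0.01 in batch 3. Vitellogenins had -4.17 in batch 3, against 0.34, 4.66 and 0.85 in batches 1, 2 and 4.

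**Figure D5:**
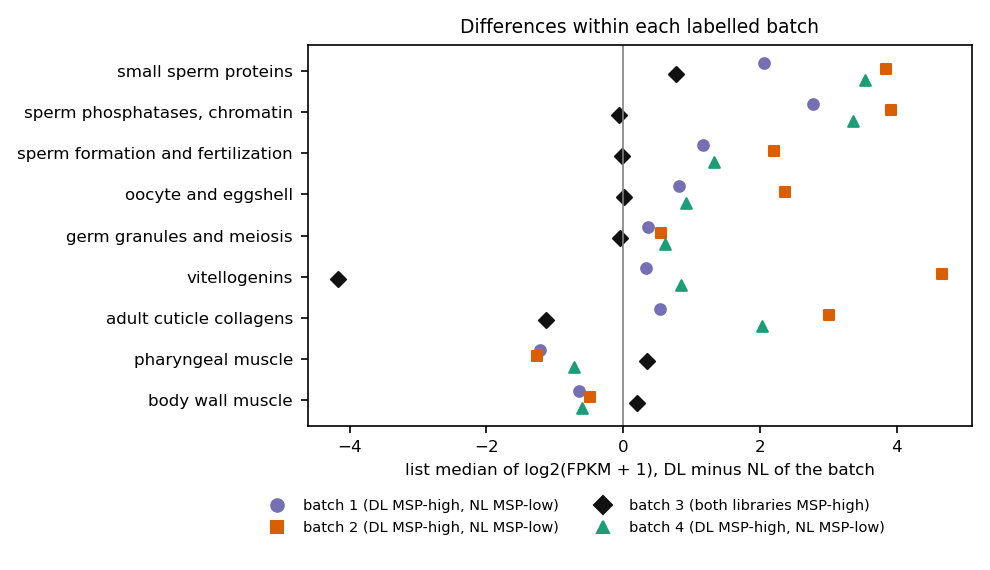
The x axis is the list median of log2(FPKM + 1), DL minus NL within 1 labelled batch; circles, squares, diamonds and triangles are batches 1, 2, 3 and 4. The 3 sperm lists lie between 1.17 and 3.92 in batches 1, 2 and 4 and between -0.06 and 0.77 in batch 3, where both libraries are MSP-high.

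Within the constant-dark libraries alone, NL 3 stood above the mean of the other NL libraries by a median of 2.91 for sperm phosphatase and chromatin genes, 1.09 for genes of sperm formation and 4.38 for vitellogenins. With 1 library on that side there is no replicate check. NL 3 was also set apart from those libraries by its msp level, so its higher levels of other sperm genes are not independent of that choice. For spch-1 the distance was 4.26.

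The labelled comparison of DL with NL can be tested, since the labels and not the values make its groups. Limma, fitted over 14358 genes with Benjamini-Hochberg adjustment at 0.05, called 101 genes (0.703%), 42 higher (0.293%) and 59 lower (0.411%) in DL, and with the batch as a replicate block it called 25 (0.174%). The msp genes chose the libraries and are given without a test, with msp-3 at 57.3 ± 43.2 FPKM in DL and 11.2 ± 18.6 FPKM in NL (SD, n = 4 each). Without NL 3 limma called 1561 genes, and without NL 1 or NL 2 it called 9 each.

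Among the sperm lists limma called 1 gene, ssp-32, which averaged 3.67 ± 0.646 FPKM in DL and 0.348 ± 0.280 FPKM in NL (SD, n = 4 each), and limma gave it a log2 change of 1.81 ± 0.23 (SE) with an adjusted p of 0.0155, or 0.0824 with the batch as a block. It rose in DL relative to NL in 4 of 4 batches and is the marker for which NL 3 lay beside NL 1 and NL 2. Limma called 0 of the other 28 small sperm proteins and 0 of the 13 phosphatase and chromatin genes. It also called 0 of the 22 sperm formation genes and 0 of the 29 oocyte and eggshell genes. The unadjusted limma p was under 0.05 for 28 of all 29 small sperm proteins, and for 13, 15 and 13 genes of the other lists. Over all 14358 genes of the fit, 2957 had an unadjusted limma p under 0.05. Of 11 nspb genes limma called 4 lower in DL, beside 0.411% of all genes. The nspb list was put together after its values were seen in these libraries. Among the called genes was nspb-7, with a log2 change of -1.76 ± 0.27 (SE). Its limma adjusted p was 0.0322, or 0.0528 with the batch as a block.

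Some genes that limma called did not follow the MSP division. The acyl-CoA dehydrogenase gene acdh-2 read 57.6, 54.6, 65.6 and 69.3 FPKM in DL 1 to DL 4, against 3.92 FPKM in NL 3 and 7.19, 7.64 and 7.76 FPKM in NL 1, NL 2 and NL 4. Its limma log2 change was 3.07 ± 0.20 (SE), with an adjusted p of 0.0013, or 0.039 with the batch as a block. The ferritin gene ftn-1 read 7.18, 11.7, 4.60 and 5.33 FPKM in DL 1 to DL 4, against 87.6 FPKM in NL 3 and 72.5, 75.7 and 26.7 FPKM in NL 1, NL 2 and NL 4. For both genes NL 3 stood with the other dark-reared libraries, although its msp mean was within the range of the DL libraries. The C-type lectin gene clec-4 read 59.6, 48.8, 132 and 134 FPKM in DL 1 to DL 4, against 5.83 FPKM in NL 3 and 8.97, 7.08 and 13.2 FPKM in NL 1, NL 2 and NL 4. In these 3 genes the MSP-high group was therefore split by the light label.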

How the data were processed

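Whole-worm poly(A) RNA was sequenced in 8 libraries, 4 DL and 4 NL. The authors deposited 1 table of FPKM values for 47087 loci. Per the submitters' processing notes it was made with HISAT2, HTSeq and the WBcel235 genome, versions not given in the sources used here. Per the labels' protocols the kit was NEBNext Ultra, which does not mark strand. Symbols and coordinates came from the Ensembl annotation, release 115, in which 44113 loci had a symbol. FPKM steps gave whole reads within 0.05 for 99.5% of 22985 genes. These reads describe only depth, the counts behind low values and the spread between libraries of 1 label. In FPKM, 1 read in 1 kb was worth 0.0463 to 0.0546.

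Values were compared as log2(FPKM + 1), which understates changes of low genes, for genes averaging 1 FPKM or more (14358, or 14329 without msp genes). MSP-high and MSP-low libraries were set by their msp values and were only described. The test of DL against NL was limma 3.58.1 (R 4.3.3) using a mean-variance trend and Benjamini-Hochberg adjustment at 0.05. Since a replicate number marks a batch in the labels, same-numbered DL and NL libraries are pairs. The deviations of paired libraries correlated at -0.0072, -0.1882, -0.3176 and 0.1899 in batches 1 to 4. The fit was first run on simulated data. Tables and figures were made in Python 3.11.15 (numpy 2.4.6, pandas 2.3.3, matplotlib 3.10.9).

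Named genes are the 3 markers, the 12 genes with the largest difference each way with at least 5 FPKM in the higher group and a symbol, up to 4 counted members a list, and the 5 limma calls with the largest change each way; further list members were named as examples after their values were seen. Of the genes so named, 1 is left out of the text. The library groups and the 27 gene lists were chosen with earlier results of these data known, 6 of the lists after values were seen, and 1 list, of mitochondrial genome symbols, matched no gene. Alternatives changed the scaling, the pseudocount, the filter on low values, the size required, the batch block and each library left out.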

Additional observations from a re-analysis of the deposited data

Results flagged for a closer look

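Single libraries stood apart within their group in 24 of 159 sets of 4 or 5 library values examined. The sets share libraries and related genes, and many genes were named for their differences between these libraries. No chance rate is therefore set beside the count. Each is given as the gap between the extreme library and its nearest neighbour, as a share of the range of the group.

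DL 2 was the extreme library within MSP-high for the mean level of 5 lists, with a share of 0.84 for msp genes, 0.809 for sperm phosphatase and chromatin genes, 0.782 for genes of sperm formation, 0.747 for germline and meiosis genes and 0.718 for cell cycle genes. Among single genes DL 2 stood apart for ssq-2 at 0.904, nsph-3.2 at 0.853, ssp-10 at 0.823, gsp-3 at 0.791, col-138 at 0.764, spe-41 at 0.748, spe-11 at 0.742, col-63 at 0.74 and msp-3 at 0.714. In each of these 14 sets DL 2 was the highest library.

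Within DL, DL 2 was apart for adult cuticle genes at 0.937, vitellogenins at 0.892 and msp genes at 0.868, and DL 3 for nspb genes at 0.864. Within NL, NL 3 was apart for vitellogenins at 0.914. Within MSP-high, NL 3 was apart for genes that followed the light label, namely acdh-2 at 0.912, lipl-1 at 0.831 and gst-15 at 0.83. It was also apart for the 21U-RNA locus 21ur-9814 at 1.0, with 2 reads there and none in any DL library. DL 4 was apart for 21ur-3861 at 0.716, where it had 0 reads. The cause of these patterns was not tested.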

How the results depend on the processing

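Counts of genes higher in MSP-high libraries, 1225 as reported, stayed within 1.5 times except with a minimum of 5 FPKM (427) and a required difference of 2 (487). Leaving out each library in turn gave 1117 to 1377, and leaving out NL 3 and DL 2 gave 1242, of which 1080 were among the 1225. The count of lower genes, 100 as reported, was less stable, at 157 with a pseudocount of 0.1, 156 after median centring, 229 after quantile normalization, 11 with a required difference of 2 and 255 without NL 3 and DL 2. Leaving out each library in turn gave 87 to 563, the highest without NL 4. Of the msp-based membership, 3 libraries remained above 3 with ssp, ssq and nspd genes, against 5.

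With the replicate block, taken as the difference within batches 1, 2 and 4, 1426 genes were higher and 392 lower. For DL against NL the replicate block gave 25 limma calls, against 101 without it; no filter gave 33, quantile normalization 216, and leaving out NL 3 and DL 2 gave 1493. Leaving out each library in turn gave 9 to 1561 limma calls, with 42 without DL 1, 19 without DL 3, 15 without DL 4 and 221 without NL 4. The block leaves 3 residual degrees of freedom, against 6. Of 390 list medians 15 moved, and of 1201 values of named genes 24 moved; none changed direction while past its threshold. Other causes were not tested. FPKM of genes with a few reads, such as msp-10 in MSP-low libraries and all 21U-RNA loci, limits what depth can show.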
